A study of Rattus norvegicus albus with 14 samples.

Results

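The constitutive proteasome is encoded by genes named Psma and Psmb for its core particle and Psmc and Psmd for its regulatory particle. They were taken here as every gene whose symbol is one of these 4 stems followed by a number, without the inducible catalytic subunits Psmb8, Psmb9 and Psmb10. This gave 36 genes of 32545, with 8 Psma, 8 Psmb, 6 Psmc and 14 Psmd genes, so 16 core and 20 regulatory members. Their messenger RNA was measured by RNA sequencing in neonatal rat ventricular myocytes, contractile cells of the heart from 1-day-old Sprague-Dawley rats that were pooled, preplated to remove fibroblasts and cultured. Cells received 10 µmol/L rosiglitazone in 1% DMSO for 0.5, 24 or 48 h (2 libraries each) or 1% DMSO alone for 0.5 h (1 library), so every group carried the solvent. Rosiglitazone is a thiazolidinedione that activates the nuclear receptor PPARγ. The drug was given in medium with insulin, transferrin and selenium. Vehicle libraries at 24 or 48 h were not analysed here, so effects of culture time and of drug time cannot be told apart.

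The proteasome degrades proteins that carry ubiquitin. Its core particle is a barrel of stacked rings, with alpha subunits (Psma) at the ends that gate entry and beta subunits (Psmb) in the middle that hold the proteolytic sites. The regulatory particle caps the barrel: its ATPases (Psmc) unfold substrates and push them into the core, and its Psmd subunits bind ubiquitin chains, remove them or hold the cap together. In heart muscle, whose contractile proteins are replaced throughout life, this system removes damaged and surplus proteins.

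Libraries held 10886559 to 28074620 counts, and the shallowest was replicate 2 of rosiglitazone 48 h. Of 10 cardiomyocyte markers, none was at 0 in any library, but their summed level ran from 13758 CPM (counts scaled to a common library size with TMM factors) in replicate 1 of rosiglitazone 0.5 h to 243 CPM in replicate 1 of 48 h. Fibroblast markers, 6 of 7 listed being measured, summed to values between 15116 and 32746 CPM. In every library the fibroblast sum was larger than the cardiomyocyte sum. Sums over different genes do not give shares of cells. Bulk counts do not assign the proteasome transcripts to a cell type. The labels do not state whether the 2 libraries of a group were separate cultures, so p-values reflect a spread that may be technical only.

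Proteasome transcripts took a larger share of all counts in the 24 and 48 h libraries than in the 0.5 h libraries. The members together held 0.520% of counts in DMSO, 0.470% and 0.552% with the drug at 0.5 h, 0.763% and 0.730% at 24 h, and 0.685% and 0.749% at 48 h. The 4 late libraries all lay above the 3 libraries of 0.5 h. The widest 95% Wilson interval, that of the shallowest library, was 0.744% to 0.754%, so counting error is small beside the spread between libraries. These intervals cover counting error only. In bulk RNA, fewer cells of a type and less RNA per cell cannot be told apart.

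Of the 36 members, 34 passed the filter on low counts, 14 core and 20 regulatory. Psma8, an alpha subunit known mainly from testis, had 7 counts in DMSO, 0 and 2 with the drug at 0.5 h, and 0 in each library of 24 and 48 h. Psmb11, a catalytic subunit known from the thymus, had 10 counts in DMSO and 0 in each of the 6 rosiglitazone libraries. The upper limit that a count of 0 allows is 3 counts, between 0.106 CPM (deepest library) and 0.279 CPM (shallowest library).

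No member passed an adjusted p of 0.05 in edgeR's quasi-likelihood test in any of the 5 comparisons made. At 0.5 h, rosiglitazone against DMSO, 0 of 34 members were called, with 0.0% of all 15655 genes called. Unadjusted, 0 members were under 0.05, against 0.109% of all genes higher and 0.498% lower, and DESeq2 called 0 members, with 0.0128% of all genes called. At 24 h against 0.5 h edgeR called 0 members, with 0.0958% of all genes called. Unadjusted, 10 members were under 0.05 and higher and 0 lower, against 6.55% and 9.12% of all genes. DESeq2 called 2 members, both higher (Psmb3 and Psmb6), where it called 8.14% of genes with an adjusted p, 2.79% higher. At 48 h against 0.5 h the count was 0, with 6.59% of all genes called. Unadjusted, 13 members were under 0.05 and higher and 0 lower, against 9.65% and 13.3% of all genes. DESeq2 called Psmd10 and Psmd11 higher, 2 of 34, no larger a share than its background of 17.5% called and 5.89% higher. For 24 and 48 h together against 0.5 h the count was 0, with 7.25% of all genes called. Here 15 members were under an unadjusted 0.05 and higher and 0 lower, against 9.49% and 15.0% of all genes. DESeq2 called 6 of 34 higher (Psmb3, Psmb6, Psmc5, Psmd4, Psmd10 and Psmd11), where it called 16.9% of genes with an adjusted p, 6.14% higher. At 48 h against 24 h no member was called, with 0.0% of all genes called, 0 were under an unadjusted 0.05 (2.8% of all genes higher and 5.34% lower), and DESeq2 called 0, with 3.48% of genes with an adjusted p called. These comparisons share libraries: the rosiglitazone 0.5 h pair enters 4 of them.

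The direction was the same for every tested member at both late times against 0.5 h. Fitted log2 fold changes were positive for 34 of 34 members at 24 h against 0.5 h, where 48.4% of all genes were positive, and for 34 of 34 at 48 h against 0.5 h, where 46.1% were. The median of the 34 was 0.55 in both, a fold of 1.47 at 24 h and 1.46 at 48 h, against medians over all genes of -0.03 and -0.07. Fitted on only the 10497 genes with a mean of at least 5 CPM, the medians over genes were 0.042 and 0.035. At 0.5 h, rosiglitazone against DMSO, 15 of 34 were positive, where 51.7% of all genes were, and the median was -0.03. At 48 h against 24 h, 10 of 34 were positive, where 49.2% of all genes were, and the median was -0.04. Without replicate 1 of rosiglitazone 0.5 h, 31 of 34 were positive at 48 h against 0.5 h, and without replicate 1 of 48 h, 33 of 34.

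**Figure D1:**
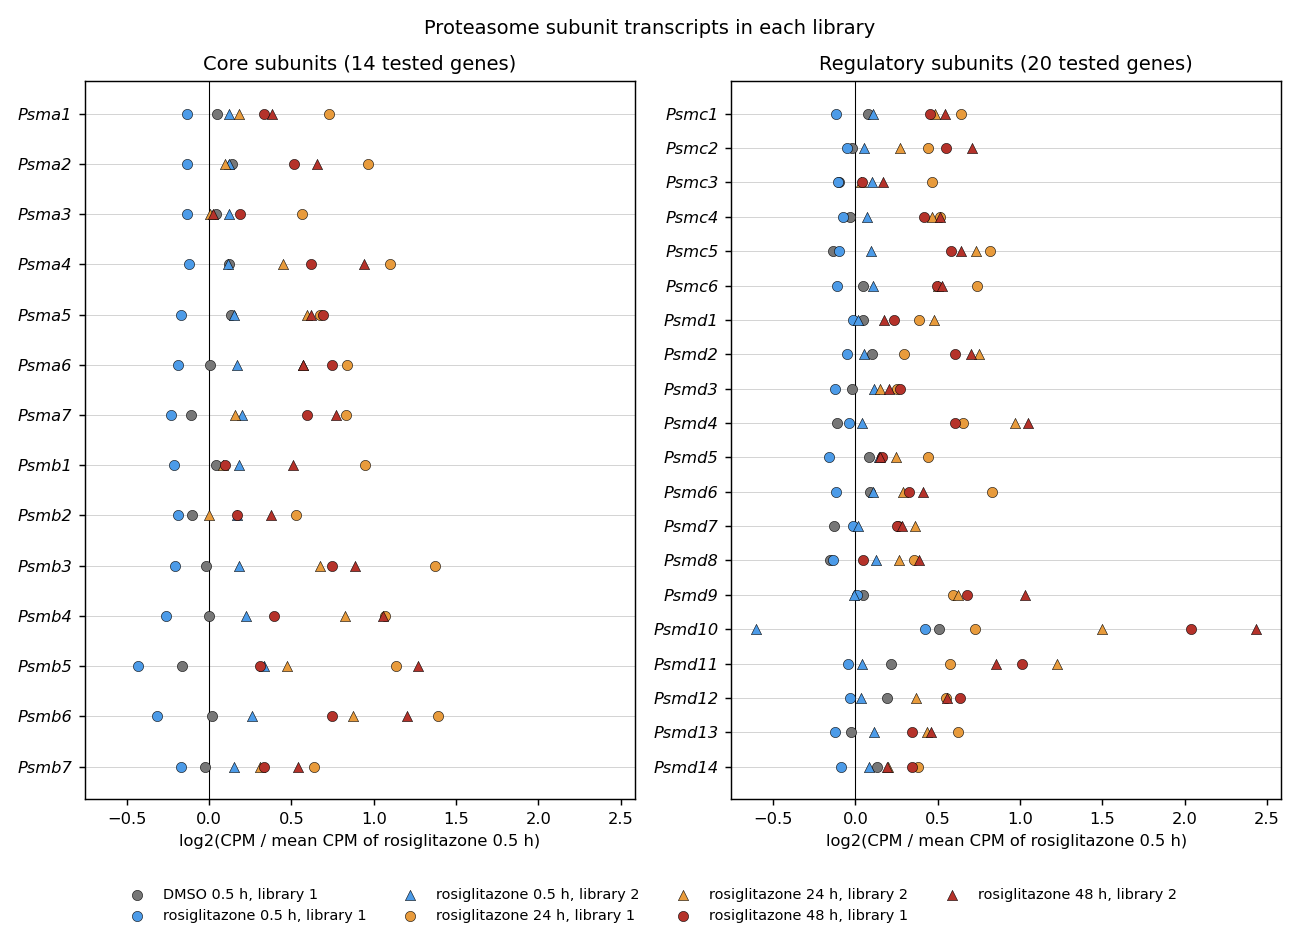
Each row is a tested proteasome gene and each point a library, placed by log2 of its CPM over the mean CPM of the 2 rosiglitazone 0.5 h libraries (grey DMSO 0.5 h, blue, orange and red rosiglitazone 0.5, 24 and 48 h; circle library 1, triangle library 2). For 26 of the 34 genes the 4 late libraries lie to the right of all 3 libraries of 0.5 h, and Psmd10 reaches furthest.

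Counted by library, 28 of 34 members at 24 h had both drug libraries above both drug libraries of 0.5 h, as 21.2% of all genes did, and 0 lay below, as 28.9% did. At 48 h it was 29 of 34, against 28.3% of all genes, and 0 lower, against 34.4%. With the DMSO library added to the 0.5 h side, 26 of 34 members had all 4 late libraries above all 3 early ones, against 14.2% of all genes. In this count no member was lower without overlap, against 19.5% of all genes. The 26 comprised 8 of 14 core and 18 of 20 regulatory members. Those that overlapped were Psma2, Psma3, Psma7, Psmb1, Psmb2, Psmb5, Psmc3 and Psmd8. At 48 h against 24 h, 4 members were higher and 3 lower without overlap, against 14.5% and 14.6% of all genes. Between rosiglitazone and DMSO at 0.5 h, 4 members lay above and 9 below the single DMSO library, against 30.2% and 31.8% of all genes.

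**Figure D2:**
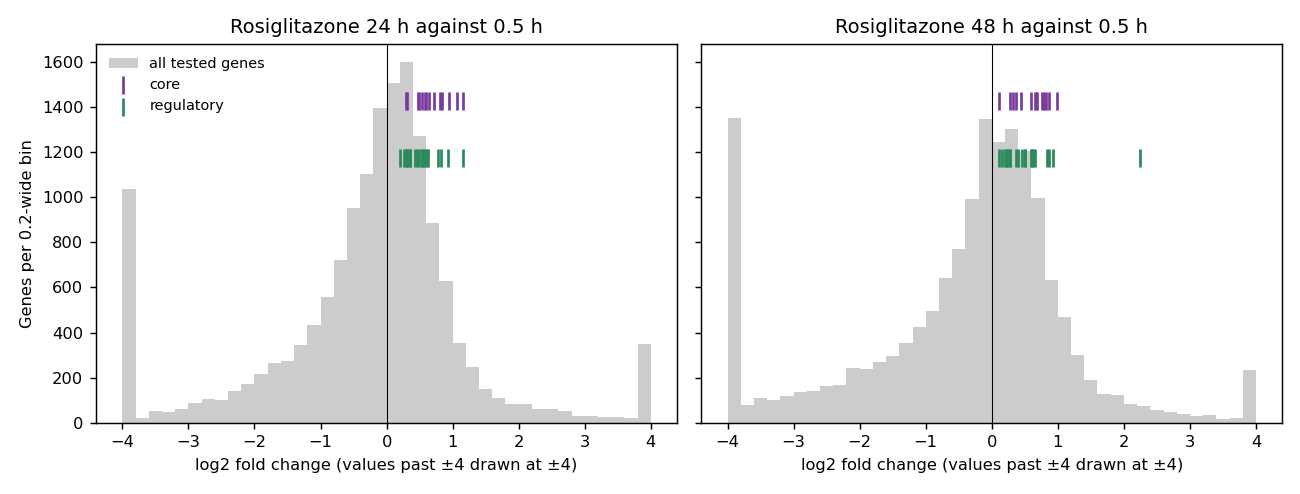
Grey bars count all 15655 tested genes by log2 fold change for rosiglitazone 24 h against 0.5 h (left) and 48 h against 0.5 h (right); coloured ticks mark the 14 core and 20 regulatory proteasome genes at heights chosen for legibility. All ticks lie above 0, at 0.20 to 1.16 on the left and 0.10 to 2.25 on the right, within the range of the grey bars.

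The beta ring held the largest core differences. Its 3 constitutive proteolytic subunits are Psmb6 (caspase-like site), Psmb7 (trypsin-like site) and Psmb5 (chymotrypsin-like site, the target of bortezomib). Psmb6 had 48.4 CPM in DMSO, 38.4 and 57.3 with the drug at 0.5 h, 125 and 87.6 at 24 h, and 80.2 and 110.2 at 48 h. All 4 late libraries lay above the 3 early ones. The log2 fold change was 1.15 ± 0.34 (SE) at 24 h against 0.5 h, with an adjusted p of 0.174 in edgeR, and 0.99 ± 0.34 at 48 h against 0.5 h, with an adjusted p of 0.131. Psmb7 had 139 CPM in DMSO, 126 and 157 with the drug at 0.5 h, 220.2 and 175 at 24 h, and 178 and 205 at 48 h. Its late libraries also lay above the early ones, by a smaller 0.48 ± 0.27 at 24 h and 0.44 ± 0.27 at 48 h. Of these 3 subunits, Psmb5 varied most between libraries of a group. It had 77.2 CPM in DMSO, 64.1 and 109 at 0.5 h, 189.6 and 120.0 at 24 h, and 107 and 208 at 48 h. Replicate 2 of 0.5 h and replicate 1 of 48 h overlapped, and the log2 fold changes of 0.84 ± 0.43 and 0.86 ± 0.43 carried the widest errors of the core.

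Among beta subunits with no active site, Psmb3 had 89.2 CPM in DMSO, 78.4 and 102 with the drug at 0.5 h, 234 and 144 at 24 h, and 152 and 167 at 48 h. The late libraries did not overlap the early ones. Its log2 fold change was 1.06 ± 0.32 at 24 h (adjusted p 0.176, edgeR) and 0.82 ± 0.31 at 48 h (adjusted p 0.175). Psmb4 had log2 fold changes of 0.95 ± 0.33 and 0.76 ± 0.33, with 498 and 420.3 CPM at 24 h against 198 and 277 at 0.5 h. Psmb2 had the smallest log2 fold change of the ring at 24 h, 0.29 ± 0.29, with 79.0 CPM in DMSO, 74.3 and 95.3 at 0.5 h, 122 and 84.9 at 24 h, and 95.4 and 110.1 at 48 h. Psmb1, whose gene overlaps Tbp in the RefSeq annotation, had 208 CPM in DMSO, 175 and 229 at 0.5 h, 389.7 and 214 at 24 h, and 216 and 288 at 48 h. The value of 24 h rested on replicate 1, since replicate 2 lay between the 0.5 h libraries.

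In the alpha ring, the gate of the barrel, Psma4 was highest by fold. It had 184 CPM in DMSO, 155 and 183 with the drug at 0.5 h, 363 and 231 at 24 h, and 259.8 and 325 at 48 h, and no late library overlapped an early one. The log2 fold change was 0.81 ± 0.31 at 24 h and 0.79 ± 0.31 at 48 h, with adjusted p of 0.273 and 0.181 in edgeR. Psma3 had the lowest, with 224 CPM in DMSO, 198 and 237 at 0.5 h, 322 and 218 at 24 h, and 247 and 222 at 48 h. Its log2 fold change of 0.31 ± 0.29 at 24 h and 0.11 ± 0.29 at 48 h lay within about its own error. Psma2 had 157 CPM in DMSO, 129.8 and 155 at 0.5 h, 278 and 152 at 24 h, and 204 and 225 at 48 h. Psma7 had 166 CPM in DMSO, 153 and 206 at 0.5 h, 319 and 200.2 at 24 h, and 270.3 and 306 at 48 h. In Psma2 and Psma7, replicate 2 of 24 h lay among the early libraries while both 48 h libraries lay above them. Psma5 and Psma6 differed by 0.64 ± 0.25 and 0.71 ± 0.27 at 24 h, and by 0.66 ± 0.25 and 0.66 ± 0.27 at 48 h.

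**Figure D3:**
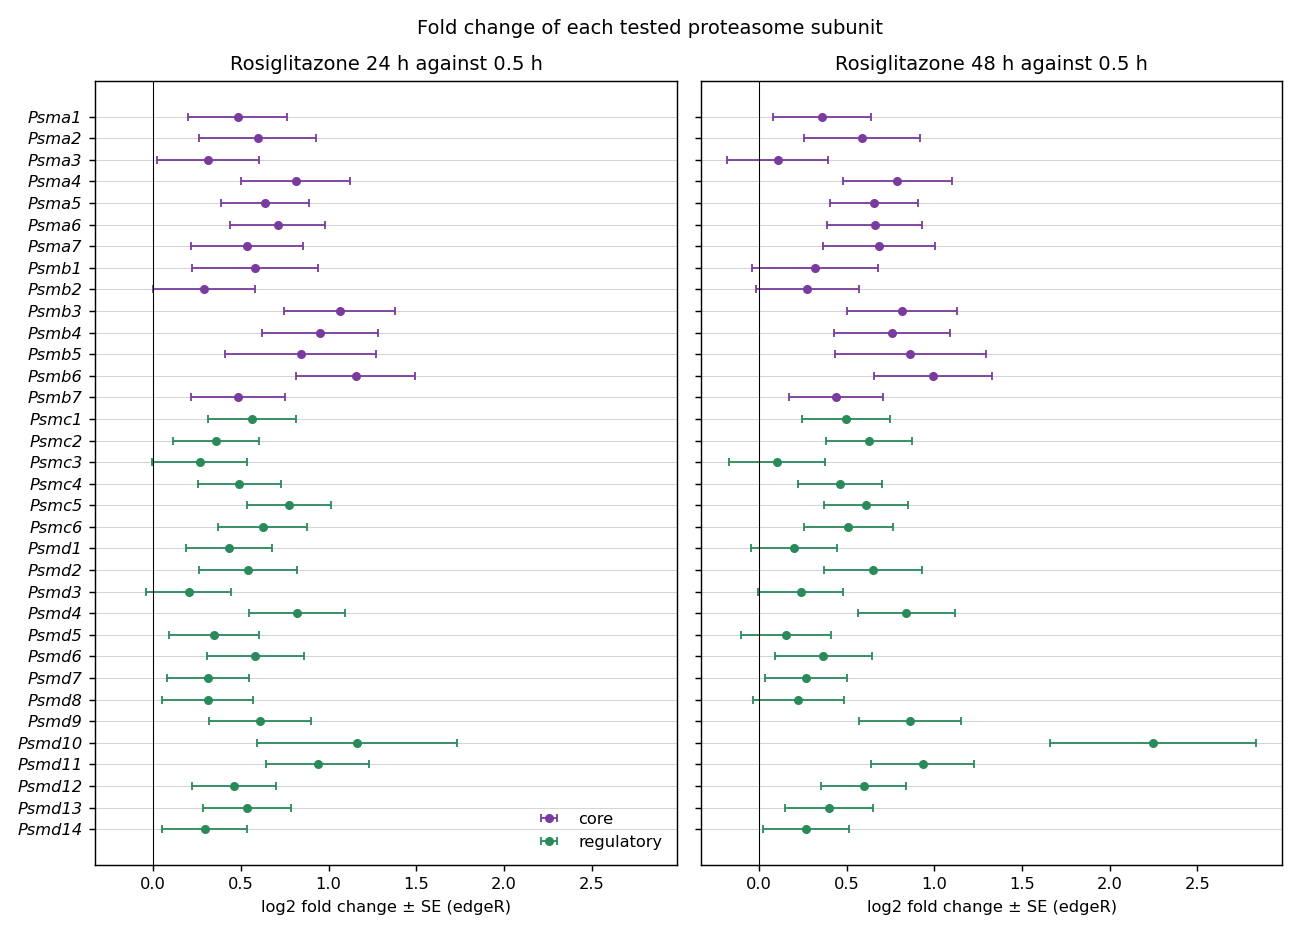
Points are edgeR log2 fold changes and bars their standard errors for the 34 tested proteasome genes, rosiglitazone 24 h against 0.5 h on the left and 48 h against 0.5 h on the right (purple core, green regulatory). All points lie above 0; Psmb6 is at 1.15 and 0.99, Psmd10 at 1.16 and 2.25, and no gene passed an adjusted p of 0.05.

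Of the 6 ATPases, the unfolding ring of the regulatory particle, 5 had all late libraries above all early ones, as 14.2% of all genes did. Psmc5 had 101 CPM in DMSO, 103 and 119 with the drug at 0.5 h, 195 and 184 at 24 h, and 166 and 173 at 48 h. Its libraries agreed closely within each group, and the log2 fold change was 0.77 ± 0.24 at 24 h (adjusted p 0.192, edgeR) and 0.61 ± 0.24 at 48 h (adjusted p 0.183). Psmc2 had 156 CPM in DMSO, 153 and 164 at 0.5 h, 215 and 191 at 24 h, and 232 and 258 at 48 h. It was the ATPase with the highest value at 48 h, 0.63 ± 0.24. Psmc1, whose tail docks into the alpha ring and opens the gate, had 218 CPM in DMSO, 191 and 223 at 0.5 h, 323 and 289 at 24 h, and 283 and 301 at 48 h. Psmc3 overlapped between groups, with 231 CPM in DMSO, 230.5 and 265 at 0.5 h, 342 and 253 at 24 h, and 255 and 278 at 48 h. The log2 fold change of Psmc3 was 0.27 ± 0.27 at 24 h and 0.10 ± 0.27 at 48 h, the lowest of the 34 members at 48 h.

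The large base subunits Psmd1 and Psmd2 are scaffolds on which ubiquitin receptors and shuttle factors dock, and Psmd4 is itself a ubiquitin receptor. Psmd4 had 108 CPM in DMSO, 114 and 120.2 with the drug at 0.5 h, 184 and 229 at 24 h, and 178 and 241 at 48 h. All late libraries lay above the early ones, and the log2 fold change was 0.82 ± 0.27 at 24 h and 0.84 ± 0.27 at 48 h, with adjusted p of 0.219 and 0.118 in edgeR. Psmd2 had 396 CPM in DMSO, 355 and 381 at 0.5 h, 452 and 621 at 24 h, and 560.1 and 598 at 48 h, a log2 fold change of 0.54 ± 0.28 and 0.65 ± 0.28. Psmd1 had 282 CPM in DMSO, 270.1 and 276 at 0.5 h, 357 and 380.0 at 24 h, and 321 and 308 at 48 h. In all 3 the late libraries lay above the early ones, but Psmd1 differed least, by 0.43 ± 0.24 at 24 h and 0.20 ± 0.24 at 48 h.

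The lid of the regulatory particle had the lowest median, 0.39 at 24 h and 0.32 at 48 h, and Psmd11 was the highest of its 8 members. Psmd11, a lid subunit that clamps the regulatory particle onto the core, had 153 CPM in DMSO, 128 and 136 with the drug at 0.5 h, 197 and 309 at 24 h, and 266 and 239 at 48 h. Its log2 fold change was 0.94 ± 0.29 at 24 h and 0.93 ± 0.29 at 48 h, with adjusted p of 0.196 and 0.108 in edgeR. Psmd14, the deubiquitinase that cuts ubiquitin chains off the substrate, had 136 CPM in DMSO, 117 and 131 at 0.5 h, 162 and 143 at 24 h, and 158 and 142 at 48 h. Although its late libraries lay above the early ones, the difference was 0.29 ± 0.24 at 24 h and 0.27 ± 0.24 at 48 h. Psmd3 had 147 CPM in DMSO, 137 and 162 at 0.5 h, 178 and 166 at 24 h, and 180.2 and 172 at 48 h, the smallest difference of all members at 24 h, 0.20 ± 0.24. Psmd8 had 122 CPM in DMSO, 124 and 148 at 0.5 h, 174 and 163 at 24 h, and 140.1 and 177 at 48 h. Replicate 1 of 48 h lay among the early libraries. Psmd6, Psmd7, Psmd12 and Psmd13 all had late libraries above the early ones, at 110.3 to 187 CPM in the rosiglitazone 0.5 h libraries.

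Psmd5, Psmd9 and Psmd10 are not parts of the finished particle but chaperones that help assemble the ATPase ring. Psmd10 (gankyrin) was the least abundant tested member and had the largest fold change. It had 4.63 CPM in DMSO, 4.37 and 2.14 with the drug at 0.5 h, 5.38 and 9.20 at 24 h, and 13.4 and 17.6 at 48 h. The values of 48 h lay above those of 24 h, and those of 24 h above all 3 of 0.5 h. The log2 fold change was 1.16 ± 0.57 at 24 h against 0.5 h, 1.08 ± 0.57 at 48 h against 24 h, and 2.25 ± 0.59 at 48 h against 0.5 h. The last had an adjusted p of 0.067 in edgeR, the smallest of any member in any comparison. Leaving out 1 library moved the log2 fold change of Psmd10 at 24 h to 0.70 without replicate 2 of 24 h, 0.74 without replicate 2 of rosiglitazone 0.5 h and 1.76 without replicate 1 of rosiglitazone 0.5 h. At 48 h against 0.5 h it ranged from 1.82 to 2.83 with 1 library left out. Psmd9 had 24.6 CPM in DMSO, 24.0 and 23.7 at 0.5 h, 35.8 and 36.7 at 24 h, and 38.2 and 48.5 at 48 h, without overlap between the times. Its log2 fold change was 0.61 ± 0.29 at 24 h and 0.86 ± 0.29 at 48 h. Psmd5 had 85.6 CPM in DMSO, 72.4 and 89.2 at 0.5 h, 109.9 and 95.8 at 24 h, and 90.3 and 89.5 at 48 h. At 48 h it exceeded the early libraries by little, 0.15 ± 0.26.

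Core and regulatory members had similar medians. The median log2 fold change was 0.62 for core and 0.51 for regulatory members at 24 h against 0.5 h, and 0.66 and 0.48 at 48 h against 0.5 h. At 48 h against 24 h the core median was -0.05 and the regulatory median -0.03. For rosiglitazone against DMSO at 0.5 h they were -0.01 and -0.04. By role, the 24 h medians were 0.84 for beta and 0.59 for alpha subunits. Among regulatory members they were 0.61 for the 3 assembly chaperones, 0.54 for base non-ATPase, 0.53 for ATPase and 0.39 for lid subunits. The regulatory medians above include the assembly chaperones. Which of the 2 classes was higher at 24 h rested on 1 library: without replicate 1 of 24 h the medians were 0.38 for core and 0.45 for regulatory members, and without replicate 2 they were 0.88 and 0.52. At 48 h the core median exceeded the regulatory one by 0.18, by 0.022 without replicate 2 of 48 h and by 0.26 without replicate 2 of rosiglitazone 0.5 h.

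The ratio of summed core counts to summed regulatory counts shows the same split inside 24 h. It was 0.693 in DMSO, 0.641 and 0.743 with the drug at 0.5 h, 0.913 and 0.643 at 24 h, and 0.709 and 0.792 at 48 h. Group means were 0.692 ± 0.072 at 0.5 h, 0.778 ± 0.191 at 24 h and 0.750 ± 0.059 at 48 h (SD, n = 2 each), so the difference between times was smaller than the spread inside 24 h. Counts are not per length, and the ratio is compared only between libraries.

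**Figure D4:**
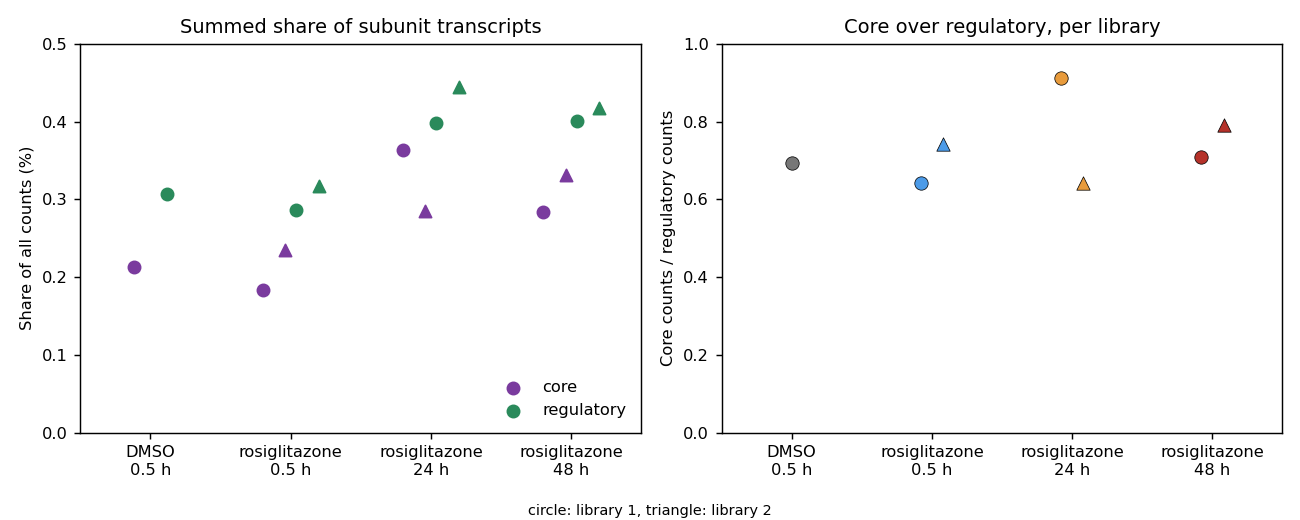
Left, the summed share of all counts (percent) held by core (purple) and regulatory (green) proteasome genes in each library; right, core counts over regulatory counts (circle library 1, triangle library 2; no error bars, each point is 1 library). Both shares are higher at 24 and 48 h than at 0.5 h, and the ratio spans 0.643 to 0.913 between the 2 libraries of 24 h.

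Core members differed in the same direction between the libraries of a group at 0.5 and 24 h. At 24 h all 14 core members were higher in replicate 1 than in replicate 2, with a median log2 difference of 0.56 and a range of 0.08 to 0.87. Of the 20 regulatory members 13 were higher in replicate 1, with a median of 0.10, and Psmd1, Psmd2, Psmd4, Psmd7, Psmd9, Psmd10 and Psmd11 were higher in replicate 2. At 0.5 h all 14 core members and 18 of 20 regulatory members were higher in replicate 2 of rosiglitazone, with medians of -0.36 and -0.16 for replicate 1 over replicate 2. At 48 h all 7 beta subunits were higher in replicate 2 (median -0.42), against 4 of 7 alpha subunits (median -0.05). Over all genes the median of each pair was 0.00. Genes of ribosomal proteins, a set looked at after these values were seen, held 3.33% of counts in DMSO, 3.02% and 4.06% with the drug at 0.5 h, 7.46% and 4.57% at 24 h, and 6.19% and 7.86% at 48 h. Within each pair the library with the larger ribosomal share was the one with the larger core to regulatory ratio; the part of this in the result was not tested.

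The inducible catalytic subunits replace the constitutive ones in the immunoproteasome, Psmb9 for Psmb6, Psmb10 for Psmb7 and Psmb8 for Psmb5. Psmb9 had 15.3 CPM in DMSO, 8.74 and 11.5 with the drug at 0.5 h, 16.9 and 11.0 at 24 h, and 11.7 and 9.02 at 48 h. Its times overlapped. As a percentage of the Psmb6 level in the same library, Psmb9 stood at 31.7% in DMSO, 22.8% and 20.1% at 0.5 h, 13.5% and 12.6% at 24 h, and 14.6% and 8.19% at 48 h. All 4 late libraries lay below the 3 early ones. Psmb10 over Psmb7 was 17.4% in DMSO, 15.6% and 15.9% at 0.5 h, 14.5% and 9.51% at 24 h, and 8.33% and 11.6% at 48 h, again lower in every late library. Psmb8 over Psmb5 showed no such order, at 7.46% in DMSO, 1.32% and 3.38% at 0.5 h, 1.43% and 1.57% at 24 h, and 5.21% and 1.34% at 48 h. These percentages are of counts, not per length, and were not tested. Macrophage markers, 8 of 8 measured with Adgre1 and Cd163 at 0 in at least 1 library, summed to 502 CPM in DMSO, 147 and 186 at 0.5 h, 92.5 and 49.3 at 24 h, and 69.4 and 83.2 at 48 h. Immune cells express the inducible subunits strongly, and the part of these markers in the percentages was not tested.

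**Figure D5:**
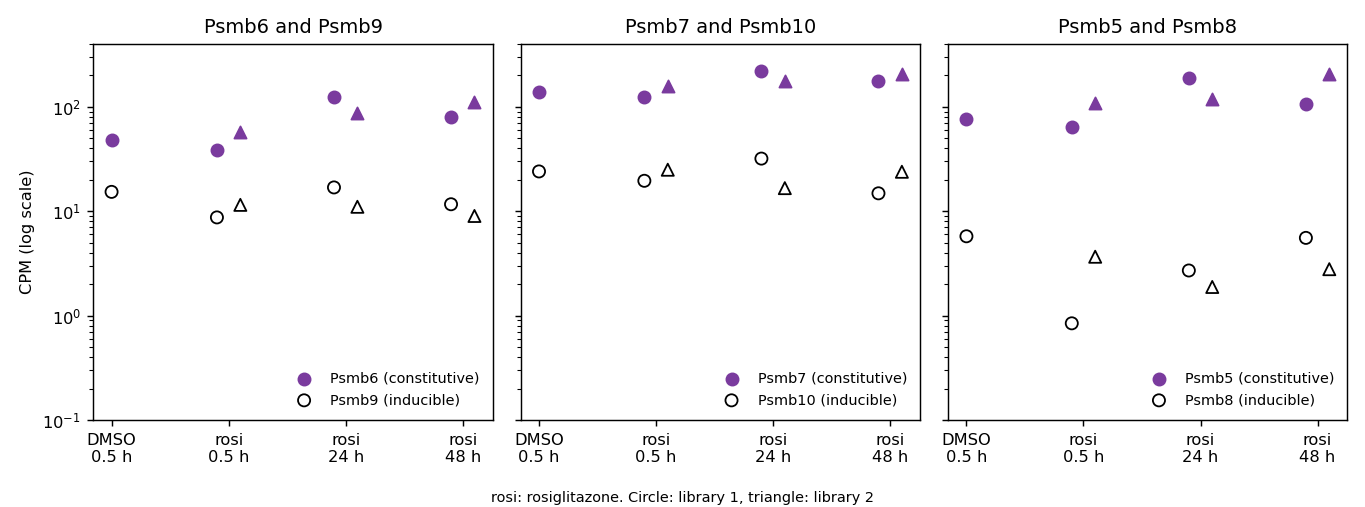
CPM on a log scale of each constitutive proteolytic subunit (purple) and its inducible counterpart (open) in each library, by group in time order (circle library 1, triangle library 2). Psmb6 lies at 38.4 to 57.3 CPM in the 0.5 h libraries and at 80.2 to 125 CPM in the late ones, while Psmb9 stays between 8.74 and 16.9 CPM throughout.

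Other genes of the pathway were read from 6 lists, of which 48 genes were tested. Nfe2l1 encodes the transcription factor known for restoring proteasome gene expression when proteasomes fail, Nfe2l2 its relative in the oxidative stress response, and Mafg a small partner that binds DNA with both. Among 8 regulators, Nfe2l2 and Mafg passed the threshold at 48 h against 0.5 h and in 24 and 48 h together, where 1.97% and 1.92% of all genes were called higher. None of the 8 was called lower, against 4.62% and 5.33% of all genes. Of the 8, 6 were positive at 24 h and 6 at 48 h against 0.5 h, where 48.4% and 46.1% of all genes were. The list medians were 0.32 and 0.56. Mafk was negative at both times, at -0.34 ± 0.27 and -0.28 ± 0.27. Maff was negative at 24 h (-0.16 ± 0.46) and Keap1 at 48 h (-0.07 ± 0.28). Nfe2l2 had 242 CPM in DMSO, 246 and 260.3 with the drug at 0.5 h, 410.3 and 398 at 24 h, and 627 and 575 at 48 h. It rose by a log2 fold of 1.25 ± 0.25 at 48 h against 0.5 h, with an adjusted p of 0.034 in edgeR. Mafg had 34.8 CPM in DMSO, 34.6 and 29.5 at 0.5 h, 67.5 and 81.9 at 24 h, and 113 and 87.6 at 48 h. It rose by 1.64 ± 0.29, with an adjusted p of 0.022. Leaving out either library of 48 h or of rosiglitazone 0.5 h ended both calls of 48 h against 0.5 h, with adjusted p of 0.096 to 0.334 for Nfe2l2 and 0.056 to 0.190 for Mafg. Their calls for both late times together were lost in the same way, except that of Mafg without replicate 2 of 48 h (adjusted p 0.042). Nfe2l1 had 219.9 CPM in DMSO, 227 and 205 at 0.5 h, 348 and 364 at 24 h, and 363 and 398 at 48 h. All late libraries lay above the early ones, and its log2 fold change of 0.82 ± 0.25 at 48 h had an adjusted p of 0.099.

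The chaperones Psmg1 to Psmg4 build the core rings, and with the Psmd chaperones 7 of 7 tested were positive, with a median of 0.99 at 24 h and 0.86 at 48 h against 0.5 h, where 48.4% and 46.1% of all genes were positive. None passed, where 0.0958% and 6.59% of all genes did. Psmg1 had 52.6 CPM in DMSO, 41.6 and 50.4 with the drug at 0.5 h, 112 and 77.0 at 24 h, and 88.2 and 108 at 48 h, with an adjusted p of 0.077 at 48 h. The gene ID listed as Pomp, the maturation chaperone of the core, had 0 or 1 counts in every library. Whether its reads were assigned elsewhere was not tested. In the list of receptors, shuttles and deubiquitinases 12 of 12 were positive at both times and none passed, against the same shares of all genes. Its ubiquitin receptor Adrm1 had 84.1 CPM in DMSO, 72.4 and 73.3 at 0.5 h, 87.7 and 145 at 24 h, and 133 and 140.1 at 48 h. Usp14, a deubiquitinase that sits on the regulatory particle, had 175 CPM in DMSO, 182 and 174 at 0.5 h, 236 and 268 at 24 h, and 243 and 204 at 48 h.

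Of 7 genes around p97, the ATPase that pulls ubiquitinated proteins out of complexes, Ubxn1 was called higher for 24 and 48 h together against 0.5 h, where 7.25% of all genes were called and 1.92% higher. Ubxn1, a cofactor of p97, had 72.2 CPM in DMSO, 79.5 and 109.6 with the drug at 0.5 h, 222 and 212 at 24 h, and 165 and 223 at 48 h. It rose by 1.12 ± 0.26, with an adjusted p of 0.046 in edgeR. That call was lost with DESeq2 size factors (adjusted p 0.050) and on leaving out either library of 48 h or of rosiglitazone 0.5 h (0.081 to 0.489). Among 6 ubiquitin and activation genes none passed at 24 or 48 h against 0.5 h, where 0.0958% and 6.59% of all genes did. Of the 6, 4 were positive at 24 h and 5 at 48 h, where 48.4% and 46.1% of all genes were. Uba1 and Uba6 were negative at 24 h, and Uba6 at 48 h. The 8 inducible subunits, activators and inhibitor had the lowest medians, 0.21 at 24 h and 0.26 at 48 h against 0.5 h, and none passed, against the same shares of all genes. Psme4, an ATP-independent activator, had 363 CPM in DMSO, 390.0 and 366 at 0.5 h, 294 and 506 at 24 h, and 311 and 307 at 48 h, with both 48 h libraries below the early ones.

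The authors' deposited table, whose columns give the 2 splits of each library separately, called far more members. In the authors' deposited table, 29 of 34 members with an adjusted p were higher at an adjusted p under 0.05 in 24 h against 0.5 h and 0 lower, against 17.8% of all genes higher and 21.2% lower. They were 11 of 14 core and 18 of 20 regulatory members. For 48 h against 24 h the authors' deposited table had Psmc2 and Psmd10 higher and Psmd1 lower, shares no larger than the 6.99% higher and 9.46% lower of all genes. For rosiglitazone against DMSO at 0.5 h the authors' deposited table had no member, where 5.07% of all genes were higher and 5.96% lower. The 2 splits of a library differed by no more than sampling noise, so they were counted here as 1 sample. Fitting the splits as separate replicates gave 30 members called at 24 h against 0.5 h, all higher, where 38.9% of all genes were called and 18.7% higher. It gave 27 at 48 h against 0.5 h, all higher, where 47.9% of all genes were called and 22.3% higher. The summed libraries gave 0 members in both.

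Summed markers of several cell types were lower in the late libraries, except cardiomyocyte markers in replicate 1 of 24 h and red blood cell markers. Cardiomyocyte markers summed to 7698 CPM in DMSO, 13758 and 13269 with the drug at 0.5 h, 12013 and 2446 at 24 h, and 243 and 1467 at 48 h. Fibroblast markers summed to 31450 in DMSO, 31713 and 32746 at 0.5 h, 20553 and 20166 at 24 h, and 15116 and 20547 at 48 h. Smooth muscle markers, 4 of 4 with none at 0, summed to 2820 CPM in DMSO, 3354 to 3499 at 0.5 h, 287 to 980 at 24 h, and 53.0 to 354 at 48 h. Endothelial markers, 5 of 6 with none at 0, summed to 139 CPM in DMSO, 142 to 171 at 0.5 h, and 34.6 to 73.5 in the late libraries. Red blood cell markers, 2 of 3, ranged from 46.7 to 195 CPM without an order in time. In the 24 h pair, replicates 1 and 2 had cardiomyocyte sums of 12013 and 2446 CPM and summed member shares of 0.763% and 0.730%. The core share was 0.364% in replicate 1 and 0.286% in replicate 2, and the regulatory share 0.399% and 0.444%. The part of these marker levels in the proteasome differences was not tested.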

How the data were processed

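RNA was sequenced from 14 samples, which are 7 libraries in 2 splits each. The deposited tables give whole-number counts per gene, with the authors' own log2 fold changes, p-values, mean signal and test score, per the file headers. HTSeq, DESeq2, cutadapt 1.11, FastQC 0.11.5 and the builds Rnor_6.0 and hg19 are listed, with no role, per the submitters' processing notes. Neither an aligner nor a counting strand is given in the sources used here. Library preparation kept strand, per the labels' protocols. Of the members, 11 overlap another gene in RefSeq, 6 of them a protein-coding one, so their counts may hold reads of a neighbour. Other gene IDs paired with a member's human homolog held at most 0.706% of that member's counts.

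Chi-square tests of the 2 splits, on genes of 20 or more counts, gave 0.964 to 1.02 per degree of freedom, so splits were summed. Libraries of a group gave 49.1 to 278. Counts of 32545 genes were fitted with edgeR 4.0.16 in R 4.3.3 (TMM scaling, its own low-count filter, robust quasi-likelihood, all 4 groups modelled jointly). It tested 15655 genes on 3 residual degrees of freedom. P-values were adjusted by Benjamini-Hochberg over all of them, with a threshold of 0.05. DESeq2 1.42.0, other filters, splits apart, only the groups compared, a replicate block and leaving out each library were alternatives. The fit was also run on simulated counts with known fold changes. Its outcome is not reported here, so the smallest difference that these libraries could detect is not stated. Differences between replicates used log2(CPM + 0.1).

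The members and lists were chosen with earlier results of these data known. Of 55 list entries in 6 lists, 49 were matched. Values in every library are given for catalytic, ubiquitin-handling and assembly members, for the highest and lowest member of each class per comparison with a mean of at least 5 CPM, for members left out by the filter, and for list genes past the threshold or fixed by name. Psmb3, Psmd11 and Psmg1 were added after their values were seen.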

Additional observations from a re-analysis of the deposited data

How the results depend on the processing

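No member was called under edgeR with DESeq2 size factors, without a filter, with a mean of at least 5 CPM, with either split alone or with the replicate block. In that order, 6.38%, 6.83%, 10.3%, 7.23%, 7.74% and 2.6% of all genes were called at 48 h against 0.5 h. For both late times together it was 7.24%, 7.58%, 10.8%, 8.18%, 8.34% and 3.2%. In the remaining comparisons at most 1.8% of all genes were called. Replicate differences of groups correlated at -0.35, 0.13 and -0.31. These values cannot tell whether replicate numbers pair the libraries, since any other difference between replicates enters them too. The block ended the calls of Nfe2l2 and Mafg at 48 h (adjusted p 0.106 and 0.062 in edgeR) and of Ubxn1 (0.093). The number of members called was 2, 2 and 6 with DESeq2 for 24 h, 48 h and both together against 0.5 h (8.14%, 17.5% and 16.9% of genes with an adjusted p), and 30, 27 and 30 with splits as separate replicates (38.9%, 47.9% and 49.4%), which also called 2 at 48 h against 24 h (20.0%). An adjusted p under 0.1 gave 1 at 48 h and 5 for both times (12.4% and 13.1% of all genes), and fitting only the groups compared gave 5 at 48 h (19.6%). Leaving out 1 library gave 0 to 1, 0 to 6 and 0 to 7, and 6 and 7 came without replicate 1 of 24 h, where 17.5% and 18.0% of all genes were called. Without replicate 2 of 24 h 5 and 6 were called (17.5% and 16.5%). Positive members numbered 4 to 25 for rosiglitazone against DMSO, 7 to 24 for 48 h against 24 h and 31 to 34 for 48 h against 0.5 h when 1 library was left out, and the core minus regulatory median at 24 h ranged from -0.072 to 0.36. The cause of these shifts was not tested. A call at 24 h against 0.5 h came only without replicate 1 of 24 h (Psmd11) or without replicate 2 (Psmb3). In each of these fits, 1 of 34 members was a smaller share than that of all genes called. Each left 1 library at 24 h, so its calls do not rest on a spread within 24 h.

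Psmb5 reversed for rosiglitazone against DMSO with the block (-0.056) and ranged from -0.27 to 0.49 with 1 library left out. Only some members were followed singly: Psmb5 and Psmd10 for rosiglitazone against DMSO, and Psmb1 and Psmd10 for 48 h against 24 h. More signs turned among the rest, since positive members numbered 4 to 25 and 7 to 24 in these comparisons. Of the members followed, Psmb1 also turned at 48 h against 24 h with 1 library out (-0.64 to 0.24). At 48 h against 0.5 h, Psma3 (-0.036 to 0.24), Psmc3 (-0.016 to 0.21) and Psmd5 (-0.010 to 0.31) turned. The members without overlap, 4 late against 3 early libraries, numbered 26 to 32 of 34 under alternatives chosen after seeing the data, with 32 without replicate 2 of rosiglitazone 0.5 h, where 17.1% of all genes were (15.5% to 19.5% over the libraries left out). They were 29 without 24 h, 28 without 48 h and 27 without TMM (25.6%, 18.8% and 13.4% of all genes). Summing several gene IDs per symbol was not run, since no symbol had more than 1.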
